A study of Mus musculus with 3 samples.

Results

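The 35 genes described here carry symbols of the radial spoke (Rsph), nexin link (Drc), tektin (Tekt), sperm flagellar (Spef), sperm-associated antigen (Spag) and EF-hand (Efhc) series, together with Enkur and Ropn1l. They were taken by symbol from the 31054 features measured. Transcripts were counted in single cells of 3 wild-type male mouse embryos of strain C57BL/6 x 129 SvEv at E8.0, selected at 0-1 somite although one label field allows 2 somites. Each embryo was dissociated whole, without its extraembryonic tissue as the labels state, and gave 1 library. The labels give no other genotype or treatment, so the comparisons are between classes of cells within these embryos. All values are counts of unique molecular identifiers (UMIs), in which the copies of 1 captured molecule are counted once, and levels are given as CPM, the counts of a gene per 1000000 UMIs of the same cells.

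A motile cilium is built around an axoneme, a ring of microtubule doublets with a central pair. Radial spokes reach from the doublets to the central pair and pass on the signals that time dynein activity, while the nexin-dynein regulatory complex links neighbouring doublets and limits their sliding. Tektins and other inner proteins line the doublets and stiffen them. In the left-right organizer (LRO, also called the node), motile cilia move fluid towards the left side of the embryo before the organs become asymmetric.

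The gene symbols cover parts that do not all belong to the cilium. Among the Spag genes, Spag6l, Spag16 and Spag17 encode proteins of the central apparatus and Spag1 a factor for the assembly of dynein arms, whereas Spag5 encodes a protein of the mitotic spindle, Spag4 a protein of the nuclear envelope and Spag9 a scaffold protein of kinase and motor complexes. By role, the 35 members comprise 9 radial spoke genes (8 Rsph genes and Ropn1l), 3 Drc genes, 5 tektins, Enkur, 4 genes of the Spef and Efhc series and 13 Spag genes. They lie on 13 chromosomes of mm10. Spag17os and Spag11a had no UMI in any cell that passed quality control.

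Promoter sequence shows a feature that the choice by symbol did not use. RFX factors, which act at the promoters of many ciliary genes, bind an X-box whose core is often written GTTGCC. RefSeq promoter windows (GRCm38.p6, 250 bases before to 50 after the start) were at hand for 27 members and for 27025 genes in all. On either strand, GTTGCC occurred in 12 of the 27 members and in 14.1% of all genes. The looser form GTTNCC, 3 bases, G, 2 bases and AC, in which N and the counted bases may be any base, occurred in 8 of 27 members and in 2.53% of all genes. A total of 6 patterns was searched in the same windows, and several of them can match at the same position. The palindromes of GTTGCC, 2 bases and GGCAAC (0.111% of all genes) and of GTTNCC, 2 bases and GGNAAC (0.529%) occurred in no member. The form GTNNCC, 2 bases and GGNNAC (2.16% of all genes) occurred in 4 members (Spag6l, Tekt4, Rsph9 and Spag5) and the forkhead core GTAAACA (4.05%) in Tekt3 alone. The windows below show the matches to the looser form, in capitals, in 4 members that rank among those described next. They are 30 bases long, written 5′ to 3′ on the strand of the gene.
Tekt1 (chr11:72361876-72361905, minus strand): tccgtccgGTTGCCATAGAGACcgcagttt
Drc7 (chr8:95055095-95055124, plus strand): cctccgctGTTACCATAGAGACaagtaaca
Enkur (chr2:21205356-21205385, minus strand): tagcaactGTTTCCTTAGCAACcacgtggt
Spag16 (chr1:69826859-69826888, plus strand): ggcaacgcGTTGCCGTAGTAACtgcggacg
The first matched base lay 15, 12 and 103 bases before the annotated start in Tekt1, Enkur and Spag16, and at the start itself (offset 0) in Drc7. A match describes letters only, and binding was not measured.

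The libraries of embryos 1, 2 and 3 held 6579, 8621 and 8333 barcodes with 207961733, 149341900 and 167503888 UMIs. After filters on genes and mitochondrial UMIs, 21595 cells remained. Of these, 263 (77, 78 and 108) carried transcripts of 4 or more of 6 genes (Foxj1, Noto, Pifo, Fam183b, Cfap126 and 1110017D15Rik) and are called LRO-like, 1.23% ± 0.216 of the cells (SD, n = 3 embryos). The cut passed 46 cells with exactly 4 of the 6 genes and left out 47 with 3 and 136 with 2. The label was checked against genes that the cut did not use. Nodal, Dand5 and Bicc1 were highest in LRO-like cells among 15 lineage classes, while T, Shh and Foxa2 were highest in axial-mesoderm-like cells. Of the 263 cells, 219 also met the axial mesoderm marker list, 30 met a list of a distant lineage and 14 were among the top 6% of doublet scores. Although extraembryonic tissue is stated to have been removed, 2524 cells met the extraembryonic endoderm list. The libraries shared 57 barcodes, of which 45 passed the filters and 2 were LRO-like. EGFP, a feature foreign to the mouse genome, had 31, 0 and 32 UMIs in embryos 1, 2 and 3, with 26, 0 and 29 of them in LRO-like cells. Counts of calls without each embryo in turn are given with the results. Each of those fits keeps embryo 1 or embryo 3, so the counts cannot show whether calls depend on the EGFP embryos.

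The first question was whether the members were higher in the LRO than in the rest of the embryo. Of the genes that chose the LRO-like cells, Foxj1 regulates motile cilia and Cfap126 is a cilia and flagella associated gene. The class was thus chosen at least in part by ciliary genes, although no member was among them. Ciliary members can be higher in the class through this choice alone, so that their calls are a description. UMIs were summed per embryo over LRO-like cells and over all other cells, and edgeR's quasi-likelihood test was run on the sums, 3 against 3, over 15823 genes with adjustment by Benjamini-Hochberg. The embryo is the replicate. Of 27 members that passed the low-count filter, 22 were higher in LRO-like cells and none was lower at an adjusted p of 0.05. An unadjusted p under 0.05 was reached by 24 members and by 4977 of the 15823 genes. Over all genes 11.2% were called higher, 6.48% lower and 17.7% in either direction. The filter can be passed through the LRO-like sums alone, so that the share of tested members called is a description. Without the filter, 23 of 33 members were called higher, beside 8.0% of all genes. DESeq2 called 24 of 33 members higher, beside 2327 of 23303 genes. Without embryo 1, 2 or 3 the call was made for 22, 21 and 21 members. Over all genes these fits called 1349 of 15870, 1032 of 16133 and 1267 of 15903 higher. The median log2 fold change was 5.32 over the tested members and -0.05 over all genes tested. For the 22 called members, the lowest sum of LRO-like cells lay above the highest sum of other cells. They were called on these same sums, so that this is a description. The share of all genes with such a separation was not counted. The median number of UMIs per cell was 29798, 18295 and 28131.5 in LRO-like cells of embryos 1, 2 and 3 and 27623, 14603 and 16270.5 in other cells. The levels are relative to each class's own total, and in a sum a higher level per cell and a larger share of positive cells cannot be told apart.

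**Figure D1:**
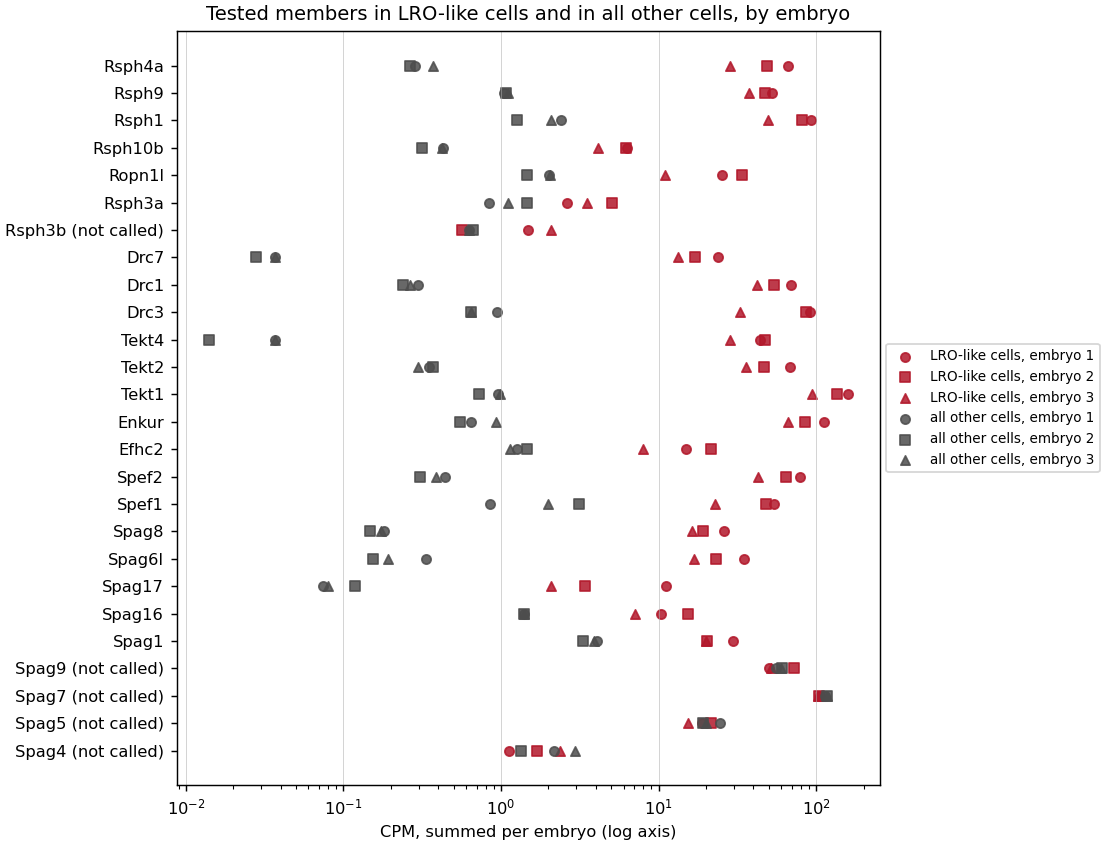
CPM (log axis) of 26 tested members in LRO-like cells (red) and in all other cells (grey), with 1 point per embryo and marker shape for the embryo. The red points of the 21 called members drawn lie to the right of all their grey points, while Spag9, Spag7, Spag5, Spag4 and Rsph3b overlap or lie close together.

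Among the radial spoke genes, 6 of 7 tested were called. Rsph4a, a component of the spoke head, had 65.9, 48.7 and 28.6 CPM in LRO-like cells of embryos 1, 2 and 3 and 0.285, 0.266 and 0.37 in other cells. The lowest LRO-like value was far above the highest of the other cells, with a log2 fold change of 7.17 ± 0.305 (SE) and an adjusted p of 1.34e-07 in edgeR. Rsph9, also of the spoke head, had 52.1, 47.6 and 37.7 against 1.05, 1.07 and 1.10 CPM, a log2 fold change of 5.32 ± 0.155. Rsph1, a further spoke head gene, had 92.4, 81.5 and 49.8 against 2.42, 1.27 and 2.08, a log2 fold change of 5.17 ± 0.273. Its level in the other cells was not near 0, and the lineage values given further on show in which cells. Rsph10b and Ropn1l, a docking protein of the spoke stalk, differed by 3.73 ± 0.337 and 3.52 ± 0.343 on the log2 scale.

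The pair Rsph3a and Rsph3b, copies of a spoke stalk gene that binds protein kinase A, stood apart with low levels. Rsph3a had 2.61, 5.10 and 3.54 CPM in LRO-like cells against 0.841, 1.46 and 1.10. Its difference of 1.59 ± 0.391 was called at an adjusted p of 0.0196 in edgeR, but not without embryo 2 (adjusted p = 0.09) or embryo 3 (adjusted p = 0.138). Rsph3b had 12 UMIs in all LRO-like cells and was not called (adjusted p = 0.116). Of the 90-base stretches in the last 500 bases of the Rsph3a transcripts, 45.7% also occur in Rsph3b, so that reads of the pair may be split or dropped and both values are uncertain. Rsph6a (20 UMIs) and Rsph14 (13 UMIs, 11 of them in LRO-like cells) were too low for the filter.

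All 3 nexin link genes were called. Drc1, at the base of the complex, had 69.3, 53.8 and 42.2 CPM in LRO-like cells against 0.296, 0.238 and 0.265 in other cells. The difference was 7.59 ± 0.208 on the log2 scale, with an adjusted p of 2.18e-08 in edgeR. Drc3 had 92.0, 86.6 and 33.0 against 0.941, 0.643 and 0.648, and embryo 3 was clearly lower than the other two in LRO-like cells. Drc7 had 23.8, 17.0 and 13.3 against 0.037, 0.028 and 0.037, and 89.1% of its 156 UMIs came from the 263 LRO-like cells.

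Of the tektins, Tekt1, Tekt2 and Tekt4 were called. Tekt4 had 44.0, 47.6 and 28.3 CPM in LRO-like cells and 0.037, 0.014 and 0.037 in other cells. That was the highest fold change of any member, 10.19 ± 0.305 on the log2 scale, and 95.2% of its 313 UMIs were in LRO-like cells. Tekt1 had 159, 136 and 93.7 against 0.957, 0.727 and 0.981, a log2 fold change of 7.09 ± 0.21, and Tekt2 had 67.8, 46.4 and 36.0 against 0.349, 0.371 and 0.296, a log2 fold change of 7.11 ± 0.245. Tekt3 and Tekt5, the remaining members of the family, were not tested at 38 and 24 UMIs. Of the Tekt3 UMIs, 18 were in mesenchyme-like cells and 5 in LRO-like cells, while Tekt5 had 1 UMI in LRO-like cells.

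Enkur, which encodes an inner protein of the doublets, had 112, 84.4 and 66.3 CPM in LRO-like cells against 0.645, 0.552 and 0.925 in other cells, a log2 fold change of 6.86 ± 0.247. For Efhc2, also of the doublets' inner proteins, the values were 14.9, 21.5 and 7.96 against 1.26, 1.45 and 1.14, a log2 fold change of 3.38 ± 0.33. Of the Efhc2 UMIs 14.3% were in LRO-like cells.

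Spef2, which belongs to the central apparatus, had 79.0, 64.5 and 43.0 CPM in LRO-like cells against 0.444, 0.308 and 0.389 in other cells, a log2 fold change of 7.24 ± 0.239. Spef1, which bundles microtubules of the central apparatus, was higher by 4.27 ± 0.476 and had 54.0, 48.1 and 22.7 against 0.851, 3.13 and 1.99. Its values in other cells spread more between embryos than those of most members.

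Of the 9 tested Spag genes, 5 were called. Spag8, an inner protein of the doublets, differed by 6.84 ± 0.273 on the log2 scale, Spag6l by 6.67 ± 0.364, Spag17 by 5.83 ± 0.619, Spag16 by 2.83 ± 0.29 and Spag1 by 2.56 ± 0.187. Spag17 was the most uneven between embryos, with 11.2, 3.40 and 2.06 CPM in LRO-like cells. The 4 tested Spag genes that were not called were detected in most lineages. Spag7 had 106, 105 and 103 CPM in LRO-like cells against 113, 117 and 117, a log2 difference of -0.23 ± 0.0888 (adjusted p = 0.106 in edgeR). With the embryo as a replicate block the adjusted p of Spag7 was 0.0224 in edgeR. It was the only member called lower in that fit, in which 2491 of 15823 genes were called lower. Spag9 differed by -0.12 ± 0.136, Spag5 by -0.29 ± 0.153 and Spag4 by -0.35 ± 0.48, none of them past the threshold (adjusted p = 0.59, 0.234 and 0.67 in edgeR). Spag6, Spag11b, Spag17os and Spag11a had between 0 and 8 UMIs in all cells and none in LRO-like cells.

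Genes of the same structures whose symbols fall outside the choice were counted from lists, chosen with earlier results of these data known. These genes can also pass the filter through the LRO-like sums alone, so that their counts are a description. Over all genes 11.2% were called higher in LRO-like than in other cells. In LRO-like against other cells, 8 of 8 further radial spoke genes, 7 of 7 further genes of the nexin-dynein regulatory complex, 2 of 2 axonemal ruler genes and 6 of 6 genes of the central apparatus were called higher. Dnajb13, a radial spoke gene, differed by 8.85 ± 0.254 and Tcte1, of the nexin-dynein regulatory complex, by 9.32 ± 0.751 on the log2 scale. The smallest difference among these 23 genes was that of Gas8, also of the nexin-dynein regulatory complex, with 1.12 ± 0.128. Of 9 tested genes of microtubule inner proteins, 8 were called higher, and Nme7 (0.41 ± 0.154, adjusted p = 0.101 in edgeR) was not. The median log2 fold change of the 32 genes tested was 6.35, beside -0.05 over all genes.

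Most LRO-like cells had transcripts of several members. At least 1 UMI of Tekt1 was found in 87.0% ± 4.49 of them (SD over 3 embryos), of Enkur in 80.7% ± 7.94, of Rsph1 in 71.6% ± 7.67 and of Drc1 in 65.5% ± 12.9. In erythroid-like cells of embryos 2 and 3, which should lack motile cilia, the shares were 0.545%, 0.727%, 0.343% and 0.0607%, at medians of 14865.5 and 16310 UMIs per cell. When each cell was thinned to 5000 UMIs, with 0, 9 and 2 shallower LRO-like cells left out, the shares in LRO-like cells were 49.0% for Tekt1, 43.7% for Enkur, 33.5% for Rsph1 and 32.3% for Drc1. Of the 22 called members, a LRO-like cell had a median of 15, 10 and 10 with a UMI in embryos 1, 2 and 3 and at most 20. An axial-mesoderm-like cell had a median of 1, 1 and 0. At 5000 UMIs per cell the medians in LRO-like cells were 5, 3 and 3.

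The levels followed the number of LRO genes detected, on which the cut was made. This is a description, since the cells are graded by the genes of the cut, some of which are ciliary, and detection also depends on depth. Median depth did not rise steadily with the number of genes. In embryos 1, 2 and 3 it was 26955, 14418.5 and 15883 UMIs per cell with 0 genes. With 2 genes it was 50046, 24737 and 28199.5, and with 6 genes 28447, 17019 and 25914. In cells with 0 of the 6 genes, Tekt1 had 0.83 ± 0.196 CPM (SD, n = 3 embryos), and with 3 it had 8.54 ± 3.82. Just inside the cut, with 4 genes, the level of Tekt1 was 42.1 ± 21.6, and with 6 genes 170 ± 29.2. Rsph4a had 0.304 ± 0.0575 with 0 genes, 9.21 ± 6.46 with 4 and 64.5 ± 20.6 with 6. Spag7 had 116 ± 2.46 with 0 genes and 92.7 ± 5.77 with 6. With the cut at 3 or at 5 genes, or with the cells of 2 and 3 genes left out, 22 members were called in each case. Over all genes these fits called 1735 of 15878, 1836 of 15755 and 1785 of 15797 higher.

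**Figure D2:**
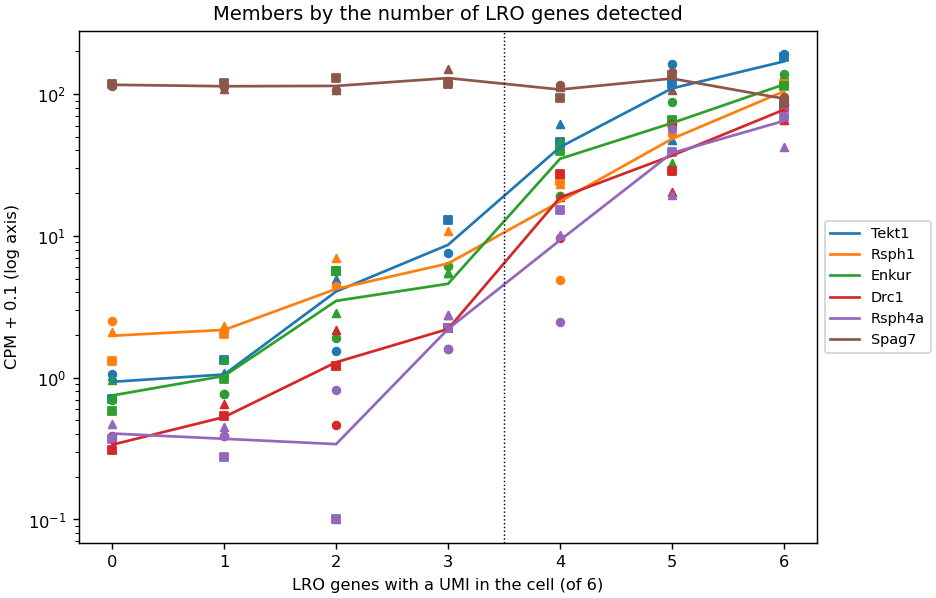
Level of 6 members (CPM plus 0.1, log axis) against the number of the 6 LRO genes with a UMI in the cell, with lines for means and circles, squares and triangles for embryos 1, 2 and 3. The dotted line marks the cut, across which Tekt1 goes from 8.54 to 42.1 while Spag7 stays near 100.

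Most called members were lowest in the same embryo. Of the 22 called members, 21 were lowest in the LRO-like cells of embryo 3, and 17 were highest in embryo 1 and 5 in embryo 2. These genes were read from the same 3 sums and are not separate observations. The share of all genes with this order was not counted. The highest embryo exceeded the lowest by a median factor of 1.87 (range 1.38 to 5.41). In other cells, 4 of the 22 were lowest in embryo 3 and 14 in embryo 2. The share of LRO-like cells with at least 4 of 6 cycling genes (Mki67, Top2a, Cdca3, Ube2c, Ccnb1 and Cenpf) was 64.9%, 71.8% and 79.6% in embryos 1, 2 and 3, so that it was highest in embryo 3. Its part in the order was not tested.

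The second question was whether the members were higher than in axial-mesoderm-like cells, the neighbouring midline cells, of which there were 18, 35 and 14. By construction these cells have a UMI of at most 1 of the 6 LRO genes, and their medians were 17972, 11183 and 8657.5 UMIs per cell. In edgeR over 8411 genes, 17 members were called higher in LRO-like cells and none was lower, beside 5.49% of all genes called higher, 3.04% lower and 8.54% in either direction. The 20 members tested include those that passed the low-count filter through the LRO-like sums alone, so that the count is a description. Without the filter, 20 of 30 members were called, all higher, beside 3.93% of all genes. DESeq2 called 15 of 30 members higher, beside 362 of 17608 genes. Without embryo 1, 2 or 3 the call was made for 15, 14 and 17 members. Over all genes these fits called 320 of 8456, 219 of 9396 and 507 of 8663 higher. The axial-mesoderm-like sums were small, at 1110465 UMIs in all, so that most members had few counts there. Rsph4a had 360 UMIs in the LRO-like class and 0 in the axial-mesoderm-like class. Taking 3 counts over the 3 embryos as the limit of a count of 0, it was at least 17.0-fold higher. By the same limit Tekt4 was at least 14.1-fold, Spag6l at least 9.06-fold and Drc7 at least 6.56-fold higher.

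With 1 to 3 counts, the ratio has a wide interval. Tekt1 had 984 against 2 UMIs, a ratio of CPM of 69.7 (exact 95% interval 19.2 to 576, counting error only). Spef2 had 472 against 1, a ratio of 66.8 (interval 11.9 to 2645). Enkur had 675 against 3, a ratio of 31.9 (interval 10.9 to 155), and Rsph1 had 561 against 2, a ratio of 39.7 (interval 10.9 to 329). Among the members called, the closest differences were those of Ropn1l (2.25 ± 0.684 on the log2 scale, adjusted p = 0.0463 in edgeR) and Spag1 (1.67 ± 0.446, adjusted p = 0.0207). Ropn1l lost the call in 6 alternatives, namely DESeq2, without embryo 1 (adjusted p = 0.372 in edgeR) or embryo 2 (adjusted p = 0.385), without the top doublet scores, with the LRO cut at 3 genes and against axial cells without any LRO gene. Spag1 lost it in 4, namely DESeq2, without the same embryos (adjusted p = 0.22 and 0.121) and against axial cells without any LRO gene, and Spef1 without embryo 2 (adjusted p = 0.0573). Spag7, Spag9 and Spag5 were not called, with log2 differences of -0.24 ± 0.164, -0.04 ± 0.237 and 0.42 ± 0.401. Efhc2, Spag16, Spag17, Rsph10b and Rsph3a, which were called against all other cells, did not pass the filter here. Their UMIs were 105 against 6, 79 against 2, 43 against 0, 42 against 0 and 28 against 2. Of the alternatives that tested them, Efhc2 was called in 0 of 5 and Rsph3a in 0 of 2. Spag16 was called in 1 of 5, Spag17 in 1 of 2 and Rsph10b in 1 of 3. Tekt5 was the reverse case, with 1 UMI in each of the 3 axial-mesoderm-like sums and 1 UMI in all LRO-like cells.

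The LRO holds cells at its rim, the crown, which express Nodal and its antagonist Dand5, and pit cells within. LRO-like cells with a UMI of Nodal or Dand5 (56, 40 and 55) were compared with those with neither (21, 38 and 53). The cells with a UMI of either were deeper, with medians of 31238, 22716 and 29458 UMIs against 25157, 15205 and 25965. A cell with neither may still be a crown cell whose transcripts were missed, so that the split is not strictly crown against pit. No member of 22 tested was called in either direction by edgeR or by DESeq2, and none reached an unadjusted p under 0.05 in either. Over all 9023 genes tested, 0.0887% were called, and 266 reached an unadjusted p under 0.05 in edgeR. The log2 differences of the members ran from -0.35 ± 0.252 for Rsph1 to 0.55 ± 0.437 for Spag16, with a median of -0.01. The standard errors of 0.158 to 0.438 leave room for moderate differences, and the absence of a call does not show equal levels.

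Cells with at least 4 of the 6 cycling genes were 50, 56 and 86 of the LRO-like cells, and 27, 22 and 22 had fewer. Of 24 members that passed the low-count filter, 21 were lower in CPM in the cycling cells and 1, Spag5, was higher, beside 18.7% of all genes called lower and 16.4% called higher (35.1% in all) in edgeR over 8493 genes. The log2 differences ran from -2.84 for Rsph4a to -1.96 for Spag1, apart from Rsph3a at -2.98, which rests on 28 UMIs. Rsph3a and Rsph10b (42 UMIs) passed the filter here but not for Nodal or Dand5. The filter can be passed through the sums of 1 group alone, so that the share of tested members called is a description. Without the filter, 22 of 30 members were called lower and 1 higher in edgeR. Over all genes that fit called 1469 of 17427 lower and 1914 higher. The 21 members called lower in the main comparison were lower in all 3 embryos. They were called on these same sums, so that this is a description, and the share of all genes with this pattern was not counted. Tekt1 had 99.3, 96.5 and 69.7 CPM in the cycling cells and 531, 561 and 520 in the others, a log2 difference of -2.51 ± 0.154. Rsph4a had 41.0, 27.2 and 20.2 against 222, 281 and 177 (-2.84 ± 0.229), and Drc1 had 39.3, 39.6 and 33.3 against 257, 207 and 199 (-2.51 ± 0.177). For these genes the embryos' values did not overlap between cycling and other cells. This too is a description of genes called on these sums, and the share of all genes without overlap was not counted.

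The 2 kinds of cells differed greatly in depth. The cycling cells had a median of 43893, 25579 and 33612.5 UMIs and the others 12084, 6500.5 and 7628, and a deeper cell more readily shows 4 cycling genes. When levels were counted as UMIs per cell, the median of all genes moved to 1.87 on the log2 scale. Only Rsph4a of the 21 was then still called lower (-0.91, adjusted p = 0.0418 in edgeR), and the median of the 21 was -0.58. Spag5, Spag7 and Spag9 were called higher per cell, Spag7 by 2.11 and Spag9 by 2.33, beside 80.6% of all genes called higher and 0.33% lower. Tekt1 then had 4.6, 2.79 and 2.60 UMIs per cell in cycling cells and 7.26, 3.82 and 4.27 in the others. For 14 of the 21 members, UMIs per cell were lower in cycling cells in all 3 embryos. The 21 were chosen on these same counts, and the share of all genes with this pattern was not counted. In cells of 5000 to 20000 UMIs, of which 4, 18 and 14 were cycling and 25, 14 and 20 were not, 14 of the 17 testable were called lower, beside 11.6% of all genes. The depth was still unequal, with medians of 16950.5, 13307 and 16624.5 UMIs in the cycling cells against 11987, 7563 and 7767.5. The window left embryo 1 out of the cycling group, which had fewer than 10 cells. With cells thinned to 5000 UMIs, 16 of 18 tested members were lower, beside 16.6% of all genes. Shallower cells were left out, namely 0, 1 and 0 cycling cells and 0, 8 and 2 of the others in embryos 1, 2 and 3. The 2 classes were still set on the full counts, so that the choice of cells still depended on depth. At that depth the cycling cells had a median of 3, 2 and 2 of the 22 members with a UMI and the other LRO-like cells 11, 10 and 10. The LRO cut was likewise made on the full counts, where a deeper cell more readily shows the LRO genes. A shallow cell may thus pass it only with a high level of those genes, some of which are ciliary. Thinning came after this choice and cannot undo it. How much of the difference between cycling and other cells comes from the cut was not tested, in CPM, per cell or in thinned cells.

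**Figure D3:**
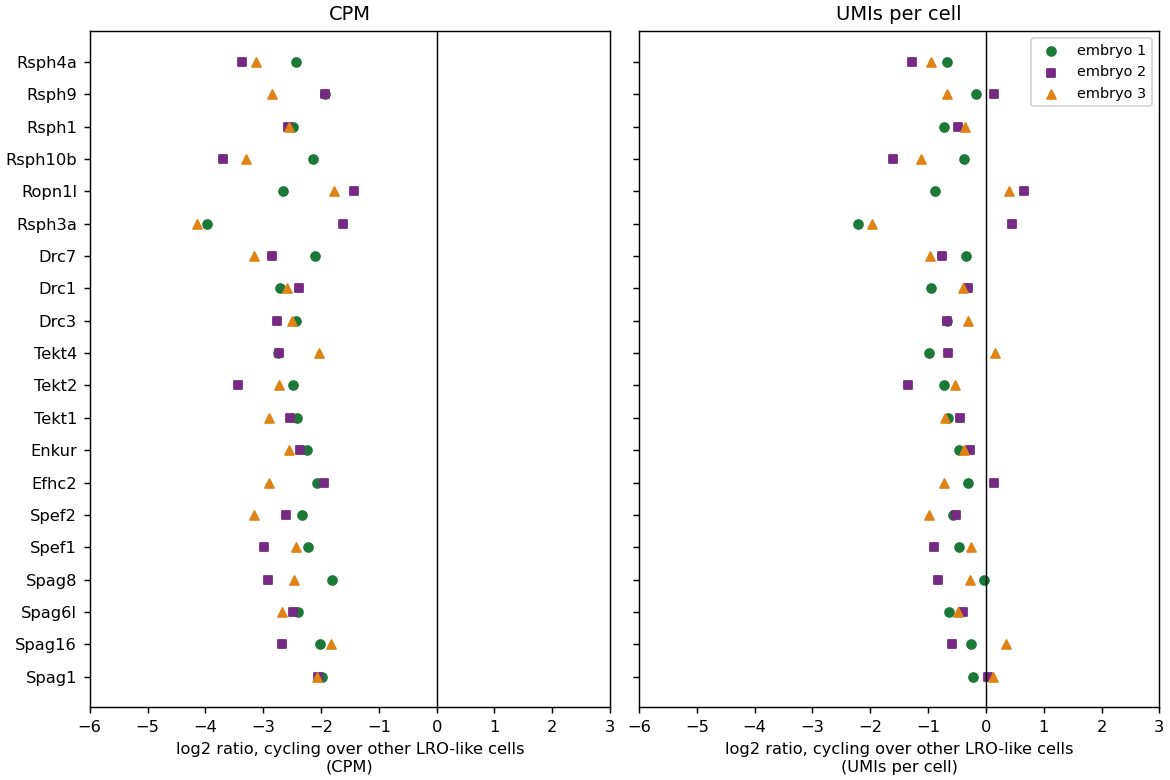
Log2 ratio of cycling over other LRO-like cells for 20 of the members called lower, per embryo, as CPM (left) and as UMIs per cell (right). All left points lie below 0, whereas the right points lie nearer to 0 and 13 of the genes drawn keep all 3 embryos below it.

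Spag5, the spindle gene, went the other way. It had 22.0, 22.9 and 16.2 CPM in cycling cells and 0, 6.68 and 0 in the others, where its only UMI was in embryo 2. The ratio of the levels, from 140 and 1 UMIs, was 13.7 (exact 95% interval 2.42 to 545, counting error only), and the call was lost without embryo 1 (adjusted p = 0.0523 in edgeR). Spag7 and Spag9 were not called, at 0.26 ± 0.195 and 0.51 ± 0.285 on the log2 scale.

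Each of 14 other lineage classes was also compared with all other cells. With LRO-like cells among the cells compared with, 117 of 375 member tests were lower and 7 higher, beside 13.9% and 10.4% of the tests over all genes. With LRO-like cells and those with 2 or 3 LRO genes left out, 21 of 340 were lower and 13 higher, beside 13.5% and 10.4%. The values that follow are from the second comparison. Spef1 stood out in erythroid-like cells. It had 24.3 and 31.0 CPM in embryos 2 and 3, from 316 and 170 UMIs, and a UMI in 32.2% ± 4.58 of the cells (SD, n = 2 embryos). Embryo 1 had only 2 erythroid-like cells and was left out. The log2 difference was 5.2 ± 0.162, in a comparison in which 23.0% of all genes were called higher. Since LRO-like cells had 54.0, 48.1 and 22.7, the levels in the 2 classes overlapped. No other class but axial-mesoderm-like cells (4 UMIs) had a mean above 1.04. Of 25 members tested in erythroid-like cells, the only other one called higher was Spag7 (0.36 ± 0.0834), and Rsph1 and Efhc2 were lower (-2.83 ± 0.553 and -1.69 ± 0.446), beside 31.9% of all genes called lower.

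**Figure D4:**
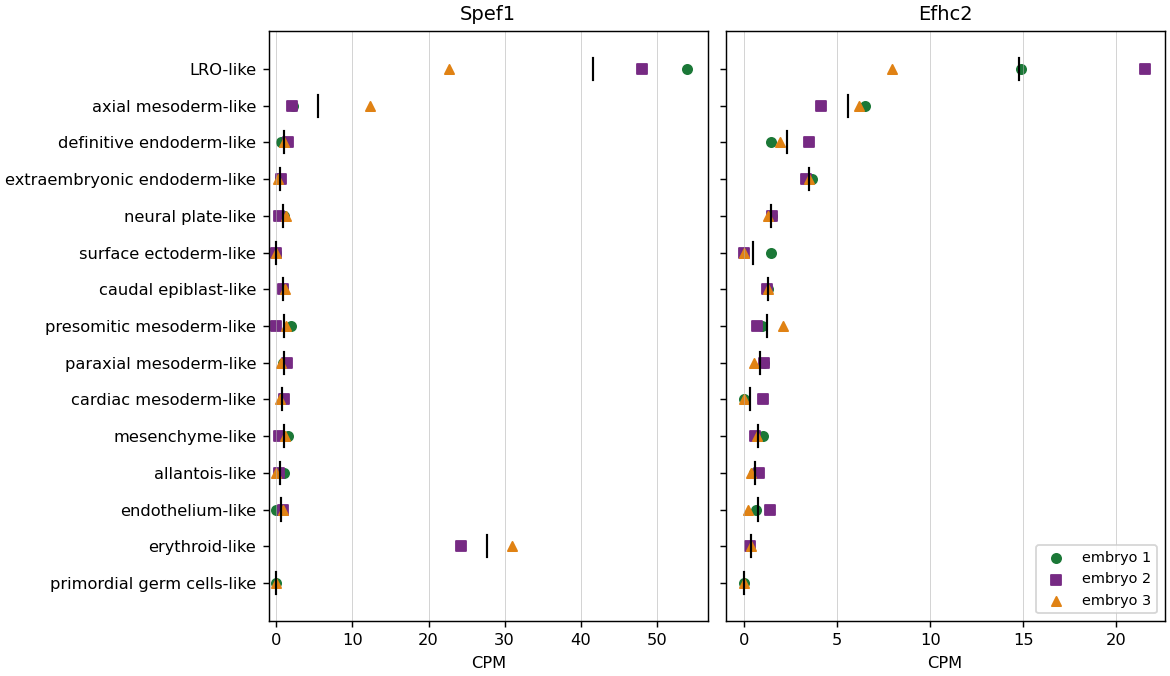
CPM of Spef1 (left) and Efhc2 (right) in 15 lineage classes, with 1 point per embryo and a bar for the mean. Spef1 stands out in LRO-like and erythroid-like cells, and Efhc2 is above 3 CPM in all embryos in LRO-like, axial-mesoderm-like and extraembryonic-endoderm-like cells.

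Efhc2 was higher in extraembryonic-endoderm-like cells, with 3.66, 3.29 and 3.5 CPM (log2 difference 1.99 ± 0.199), while 33.4% of all genes were called higher there. In the same cells 3 further members were higher, Rsph4a by 1.63 ± 0.333 from 35 UMIs, Spag7 by 0.39 ± 0.0687 and Spag9 by 0.37 ± 0.0763, and 12 of 24 members were lower, beside 36.5% of all genes. The lowest of these were Spag16 (-2.27 ± 0.282), Tekt1 (-1.99 ± 0.388) and Spef1 (-1.98 ± 0.615). In neural-plate-like cells Rsph1 had 5.76, 3.66 and 4.08 CPM from 190 UMIs, a log2 difference of 1.51 ± 0.272, and a UMI in 12.0% ± 5.86 of the cells. Drc1 was the other member called there (1.59 ± 0.336, 26 UMIs), beside 9.44% of all genes called higher. In definitive-endoderm-like cells Enkur (1.67 ± 0.387, 31 UMIs), Spag8 (2.54 ± 0.66, 12 UMIs) and Tekt2 (1.60 ± 0.457, 15 UMIs) were higher, beside 14.3% of all genes, and Spag9 was lower (-0.50 ± 0.101), beside 14.9%. In presomitic-mesoderm-like cells Spag9, the scaffold gene, had 84.1, 87.7 and 79.4 CPM and was higher by 0.53 ± 0.0919, beside 4.37% of all genes called higher. In endothelium-like cells Rsph9 (-3.82 ± 0.803), Drc3 (-2.33 ± 0.704), Drc1 and Spef2 were lower, beside 20.7% of all genes, and in mesenchyme-like cells Tekt2 (-1.93 ± 0.444) and Drc1 (-1.88 ± 0.472), beside 12.6%. Drc1 and Spef2 had 0 UMIs in endothelium-like cells. Tekt5 was called higher in axial-mesoderm-like cells on 3 UMIs, beside 3.16% of all genes.

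**Figure D5:**
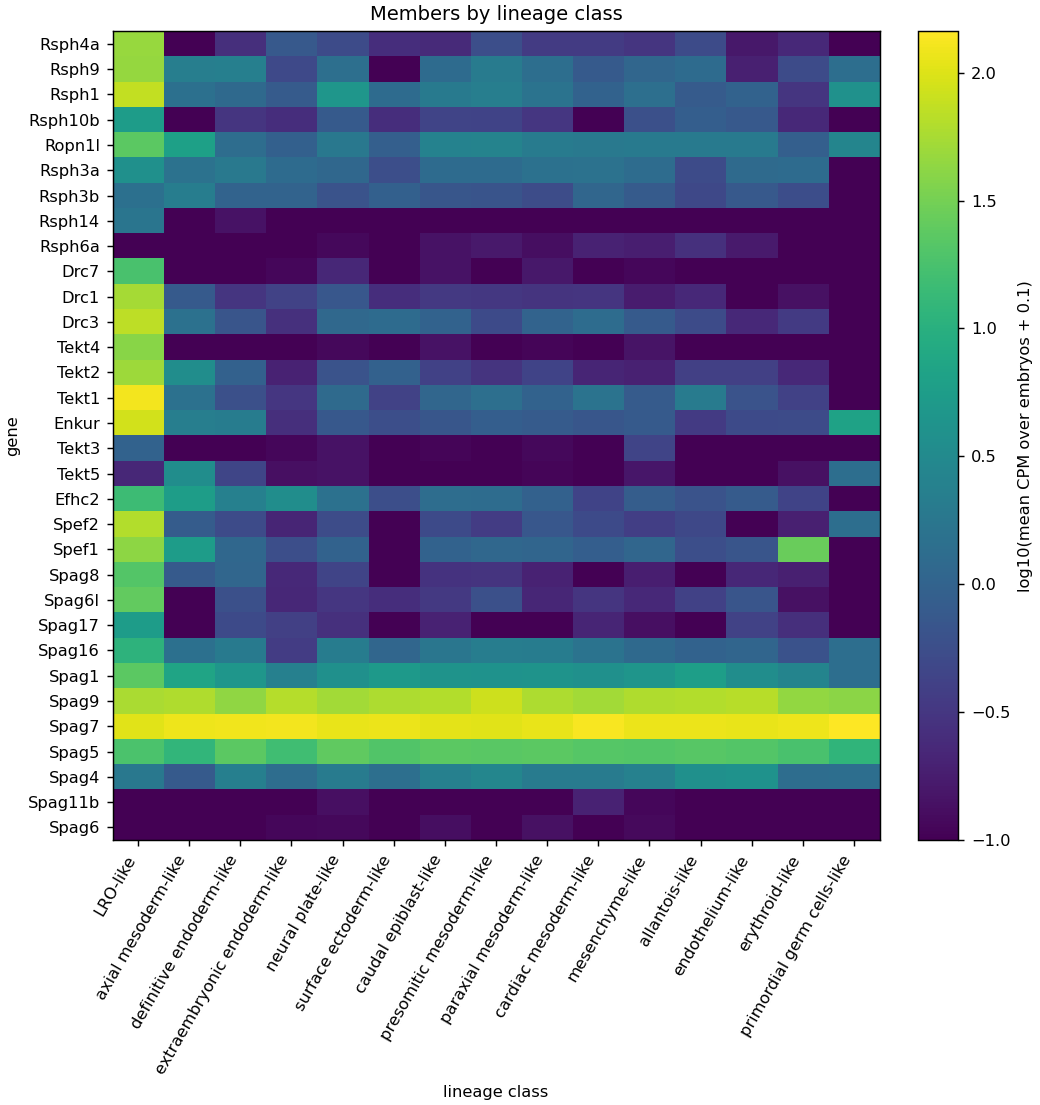
Mean level over embryos, as log10 of CPM plus 0.1 in colour, of 32 members with a UMI in 15 lineage classes. The called members are brightest in the LRO-like column, Spef1 is also bright in erythroid-like cells, and Spag7, Spag9 and Spag5 are bright in all columns.

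In the order of classes, all 22 called members had their highest mean in LRO-like cells. They were called as higher in those cells on the same counts, so that this is a description. The class next below was neural-plate-like for Rsph1 (190 UMIs), extraembryonic-endoderm-like for Rsph4a (35 UMIs) and definitive-endoderm-like for Rsph9 (30 UMIs). For Tekt2, Drc1, Drc3, Ropn1l, Spag1 and Efhc2 it was axial-mesoderm-like, on 1 to 8 UMIs, which does not fix the place. The ratio of the highest to the next mean was 1.51 for Spef1, 2.64 for Efhc2 and 890 for Tekt4, for which the next class held 3 UMIs. Of the members not called, Spag7 was highest in primordial-germ-cell-like cells (145 ± 31.4 CPM, n = 2 embryos), close to cardiac-mesoderm-like cells (134 ± 1.53), and those values overlapped. Spag5 was highest in neural-plate-like cells (24.7 ± 2.47), within its spread of caudal-epiblast-like cells (23.0 ± 3.20).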

How the data were processed

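The deposited files hold raw UMI counts per feature and barcode, which the authors made with Cell Ranger (version 3.1.0, per the submitters' processing notes) on mm10 with EGFP added. The members and gene lists used here were chosen with earlier results of these data known. Barcodes with fewer than 1500 genes, more than 8500, 7500 or 8500 genes in embryos 1, 2 and 3, over 10% or under 0.5% mitochondrial UMIs were removed (573 by the last filter). Lineages were set by UMIs of 6 markers each, cells of equal scores (2201) or without a lineage (4056) were not named, and names were checked on further markers. Not all of these were highest in their own class. For surface ectoderm none was (Epcam ranked 2, Krt8 5 and Cdh1 5). For mesenchyme Tbx20 and Postn ranked 3. Sox3 (neural plate), Fgf8 (caudal epiblast), Cited1 (presomitic mesoderm), Krt18 (definitive endoderm), Ppp1r1a (paraxial mesoderm) and Sox2 (primordial germ cells) were also highest in another class. Scrublet in scanpy (version 1.11.5) called 2 doublets, so the top 6% of scores was used only as an alternative.

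UMIs were summed per embryo and class (at least 10 cells) and tested in edgeR (version 4.0.16, under R version 4.3.3) with TMM, filterByExpr and quasi-likelihood tests, with Benjamini-Hochberg adjustment over all genes tested. Standard errors come from the F statistic. DESeq2 (version 1.42.0) was an alternative. A share of 0 or a sum of 0 was given the limit of 3 counts. On simulated data with 200 changed genes, LRO-like against other cells, 53% of 2-fold and 74% of 4-fold changes were recovered and 7.97% of calls were false. Against axial-mesoderm-like cells, for Nodal or Dand5 and for cycling, 51%, 68% and 50% of 2-fold changes were recovered, with 3.38%, 4.22% and 3.65% of calls false. The simulated sums were drawn independently, without an effect of the embryo, so that these rates may not hold for paired sums. Sums of the same embryo are paired, since they come from 1 animal. Across genes their deviations correlated at 0.159 to 0.22 for LRO-like against other cells, 0.0611 to 0.0883 against axial-mesoderm-like cells, 0.101 to 0.357 for Nodal or Dand5 and 0.0973 to 0.16 for cycling. Named were all tested Rsph, Tekt, Drc, Enkur and Ropn1l genes, and the Spag, Spef and Efhc genes called in a comparison. The others are named to account for the members, except 1 that enters the counts and is not reported here by name. Coordinates are from GENCODE M21 (GRCm38), promoters from RefSeq.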

Additional observations from a re-analysis of the deposited data

Results flagged for a closer look

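EGFP was read out in the deposited features although all 3 embryos are labelled as wild type. It had 31 UMIs in embryo 1 and 32 in embryo 3, above the limit of 3 counts, and 0 in embryo 2. Of the LRO-like cells, 18 of 77 and 19 of 108 had a UMI of it, and of the other cells 2 of 5718 and 2 of 7736. In embryo 2 it was found in 0 of 78 LRO-like cells, which allows a share of cells with a UMI of up to 3.85% and sets no limit on cells with the transcript. Without each embryo in turn, 21 or 22 members were called higher in LRO-like than in other cells, and 22 with all embryos. Each of these fits keeps embryo 1 or embryo 3, so they cannot show whether calls depend on the EGFP embryos. Where these UMIs came from was not tested.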

How the results depend on the processing

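Of the alternatives, 3 were chosen after seeing the data, namely UMIs per cell, cells of 5000 to 20000 UMIs and lineages without LRO-like cells. For LRO-like against other cells, 21 to 24 members were called under 14 alternatives (22 in the main comparison). Over all genes these fits called from 1163 of 16133 (without embryo 2) to 4814 of 15823 (replicate block) in either direction. The count was 21 to 22 when an embryo was left out, where Rsph3a was lost without embryo 2 or 3. It was 23 under the replicate block, where Spag7 was added as lower, beside 2491 of 15823 genes called lower. Rsph14 was added without the filter and, with Tekt3, under DESeq2. Against axial-mesoderm-like cells, 17 members were called in the main comparison and under the replicate block, 14 to 17 when an embryo was left out, and 10 of 12 tested when cells were thinned to 5000 UMIs, where fewer members passed the filter. Over all genes the replicate block called 978 of 8411 and the thinned fit 298 of 4067. For Nodal or Dand5, 0 members were called under all 11 alternatives, with an unadjusted p under 0.05 for 1 member without the filter and for 1 under the replicate block. Over all genes such a p was reached by 568 of 17427 and 491 of 9023 in these 2 fits. For cycling, 22 members were called in the main comparison and under the replicate block and 21 to 23 when an embryo was left out, but 4 with UMIs per cell (3 higher and 1 lower, against 1 higher and 21 lower) and 14 of 19 in cells of 5000 to 20000 UMIs, where fewer cells and members entered. Over all genes the replicate block called 3303 of 8493, UMIs per cell 6872 of 8493 and the depth window 802 of 4028. Without embryo 1, 2 or 3, it was 2043 of 8173, 2216 of 9388 and 2532 of 8724 genes. The lineage comparisons gave 124 calls in 375 member tests with LRO-like cells present and 34 in 340 without them. Over all genes 10.4% of the tests were called higher in both settings, and 13.9% and 13.5% lower. The median share of LRO-like cells with a UMI over the 22 called members was 56.5%, and 22.0% after thinning. The sign changed for genes without a call. Per cell, against other cells, Spag7 was at 0.16, Spag5 at 0.053 and Spag9 at 0.25 on the log2 scale, where the median of all genes moved to 0.33. Against axial-mesoderm-like cells, Spag7 was at 0.63 and Spag9 at 0.80 per cell (median of all genes 0.84), and Spag9 between -0.16 and 0.084 when an embryo was left out (0.084 without embryo 3) and at 0.45 in thinned cells. For cycling, Spag7 was at -0.086 in thinned cells and -0.056 in cells of 5000 to 20000 UMIs. The causes were not tested. Depth limits the axial-mesoderm-like values most, since 14, 18 or 35 cells gave 0 to 3 UMIs for most members.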
